A study of Mus musculus with 19 samples.

Results

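The iron homeostasis genes followed here are 10 genes that make, carry, sense, store or release iron in the liver: Hamp, Hamp2, Trf, Tfrc, Tfr2, Fth1, Ftl1, Slc40a1, Cp and Hfe. They were taken by name from a table of 31053 mouse genes counted by 3′ mRNA sequencing of whole liver. All mice were male and of the strain labelled C57BL6J, 6 to 8 weeks of age at the start. The PBS group (n = 5) received the vehicle, phosphate-buffered saline. The TAA_GFP group (n = 7) received thioacetamide, a liver toxin that causes fibrosis, in rising doses over 12 weeks, and at week 10 an adeno-associated vector of serotype 8 that makes green fluorescent protein (AAV8 TBG eGFP). The TAA_miR group (n = 7) had the same thioacetamide course and at week 10 a mixture of a miR-34b vector and a miR-34c vector (AAV8 TBG miR34b/c). In both vectors the TBG promoter, which is active in hepatocytes, drives the insert, and livers were taken 4 weeks after the vector. No vector is named for the PBS mice, so thioacetamide and vector cannot be told apart in a comparison with PBS, whereas TAA_miR against TAA_GFP compares the vectors within the toxin-treated mice.

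Hepcidin, the product of Hamp, is a small hormone made by hepatocytes. It binds ferroportin (Slc40a1), the only known cellular iron exporter, and has it degraded, so that less iron enters the blood. Its transcription is raised by bone morphogenetic proteins acting through SMAD factors, with Hfe and transferrin receptor 2 (Tfr2) as sensors of transferrin-bound iron, and by interleukin 6 acting through STAT3. Inside cells, iron regulatory proteins bind hairpins called iron-responsive elements, which block translation of the ferritin and ferroportin messengers and protect the transferrin receptor messenger from decay.

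The libraries held between 2214073 and 5208405 counts, and each of the 10 genes passed the filter on low counts in all 3 comparisons. Levels are given as CPM (counts scaled to the same library total, adjusted by the trimmed mean of M values), or as log2 CPM after adding 2 counts. All 10 hepatocyte markers examined were detected in every group, with a summed level of 69256 to 82856 CPM in TAA_GFP, 58192 to 91537 CPM in TAA_miR and 72091 to 86992 CPM in PBS. In these bulk samples, fewer cells of a type and less RNA per cell cannot be told apart. Within groups, 6 pairs of libraries were closer to each other than the rest, with a coefficient of variation beyond counting noise of 0.0729 to 0.130 against 0.195 to 0.449 for the other 46 pairs. They were PBS libraries 1 and 4 and 3 and 5, TAA_GFP libraries 1 and 2, and TAA_miR libraries 1 and 2, 3 and 4, and 5 and 7. Whether the libraries of a pair come from separate mice is not known from the values, so a pattern held by such a pair may count 1 sample 2 times. When each such pair was summed into 1 sample, 1 of the edgeR calls on the 10 genes remained, the higher Cp in TAA_miR than in PBS. The lost calls had log2 fold changes near those of the unsummed fits given below. They were 1.04 for Ftl1 in TAA_GFP against PBS, and 1.63 for Hamp2 and 0.77 for Cp in TAA_miR against TAA_GFP. In TAA_miR against PBS they were 1.49 for Hamp2, 0.92 for Trf, 0.79 for Ftl1 and -0.76 for Slc40a1. All 3 comparisons share groups, so their values are set side by side and not counted as repeats of each other.

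A gene was called changed when edgeR's quasi-likelihood test gave an adjusted p under 0.05 over all genes tested. In TAA_GFP against PBS, 1 of the 10 genes was called, the higher Ftl1, where 12.7% of all genes tested were called, 7.54% higher and 5.19% lower. In TAA_miR against TAA_GFP, 2 of 10 were called, Hamp2 and Cp, both higher, against 3.36% of all genes, 1.95% higher and 1.42% lower. In TAA_miR against PBS, 5 of 10 were called, with Hamp2, Trf, Ftl1 and Cp higher and Slc40a1 lower, against 21.9% of all genes, 12.2% higher and 9.75% lower. The median log2 fold change over the 10 genes was 0.15, 0.05 and 0.47 in these comparisons, beside medians of -0.01, -0.01 and 0.02 over all genes tested.

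**Figure D1:**
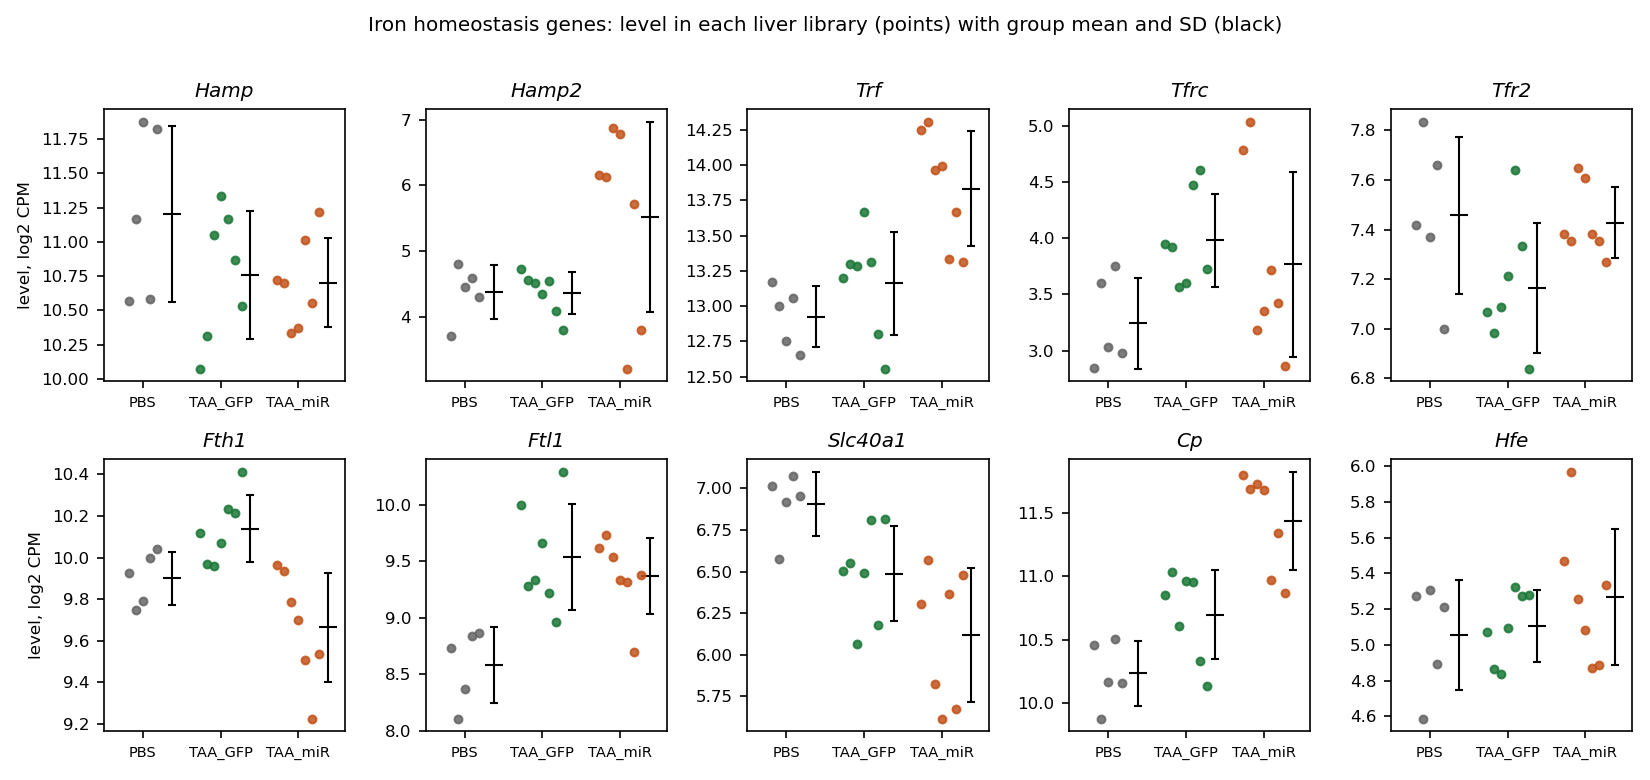
Level of each of the 10 iron homeostasis genes in log2 CPM (vertical axis, scaled separately per gene) in each library of PBS (n = 5), TAA_GFP (n = 7) and TAA_miR (n = 7). Each point is 1 library and the black bar is the group mean with its SD. TAA_miR lies above every PBS library for Trf and Cp and below every PBS library for Slc40a1, while the TAA_miR points of Hamp2 form a high set of 5 libraries and a low set of 2.

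**Figure D2:**
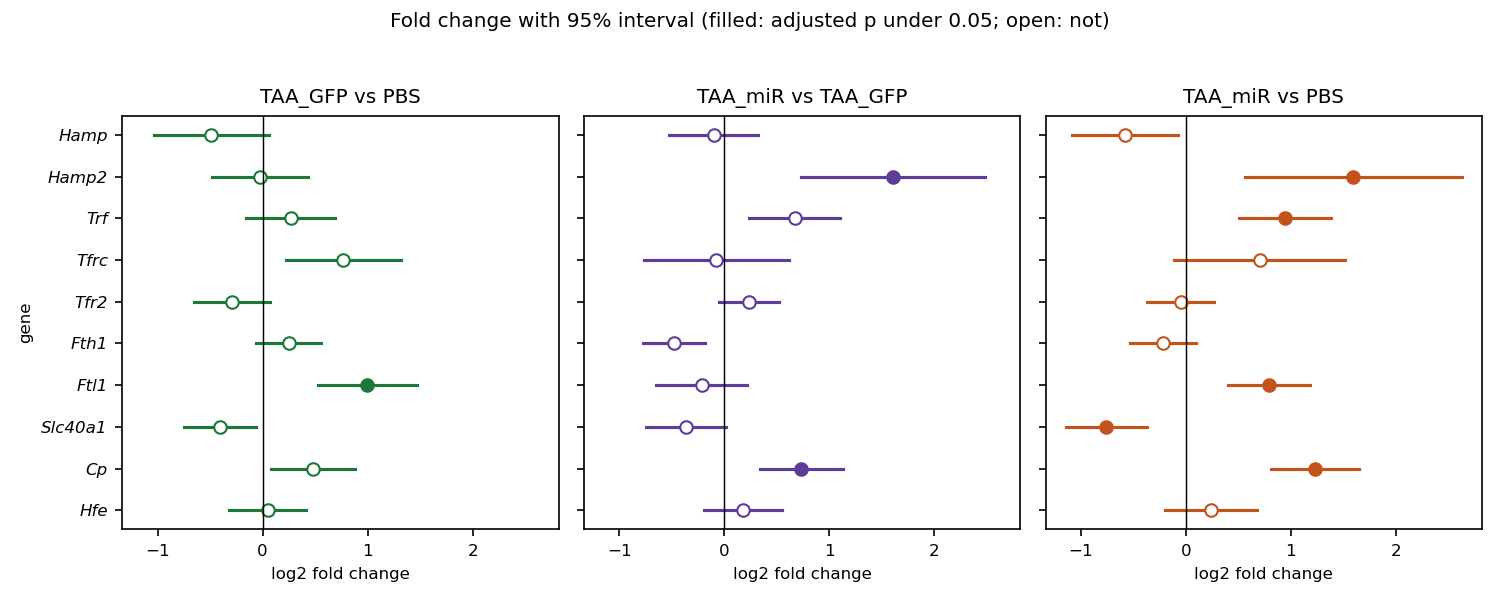
Log2 fold change (horizontal axis) of the 10 genes in each comparison, with the 95% interval as a line. Filled points have an adjusted p under 0.05 in edgeR's quasi-likelihood test: Ftl1 in TAA_GFP against PBS, Hamp2 and Cp in TAA_miR against TAA_GFP, and Hamp2, Trf, Ftl1, Slc40a1 and Cp in TAA_miR against PBS.

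Hamp did not pass the test in any comparison. In PBS livers it stood at 1515, 2294, 3760, 1531 and 3630 CPM in libraries 1 to 5. In TAA_GFP livers the lowest, median and highest Hamp levels were 1076, 1864 and 2581 CPM, and in TAA_miR livers 1292, 1663 and 2386 CPM. The groups overlapped, and the PBS libraries split into a low pair (1 and 4, which are also 1 of the close pairs) and a higher set of 3. Hamp had a log2 fold change of -0.49 ± 0.26 (SE) in TAA_GFP against PBS, with an adjusted p of 0.219 in edgeR's quasi-likelihood test. Between TAA_miR and TAA_GFP it was -0.10 ± 0.20, with a 95% interval from -0.52 to 0.33 (edgeR adjusted p = 0.880). Against PBS, TAA_miR had a Hamp log2 fold change of -0.58 ± 0.24, with a 95% interval that ran from -1.08 to -0.07 before adjustment and an edgeR adjusted p of 0.0923. PBS libraries 1 and 4, the low pair for Hamp, had a summed level of 26 acute-phase genes of 80879 and 79728 CPM, whereas the other PBS libraries had 37507 to 41475 CPM. The part of this difference in the spread of Hamp was not tested.

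Hamp2 is a second hepcidin gene that mice carry next to Hamp on chromosome 7, and it rose in TAA_miR. Both genes lie on the minus strand of GRCm38, Hamp (ENSMUSG00000050440) at chr7:30942368-30944032 and Hamp2 (ENSMUSG00000056978) at chr7:30922372-30924681. Because hepcidin transcription answers to SMAD and STAT3 signals that reach the DNA just before the gene, the 250 bases upstream of each RefSeq start are shown, read 5′ to 3′ on the minus strand from GRCm38.p6. The Hamp window is chr7:30944030-30944279 and the Hamp2 window is chr7:30924182-30924431. The Hamp2 window lies inside the gene span given above, because the RefSeq start is downstream of the 5′ end of that span. Capitals mark GGCGCC, the core of a BMP-responsive element, or the bases of Hamp2 aligned with it, and TTCNNNGAA, the form of a STAT-binding site.
Hamp: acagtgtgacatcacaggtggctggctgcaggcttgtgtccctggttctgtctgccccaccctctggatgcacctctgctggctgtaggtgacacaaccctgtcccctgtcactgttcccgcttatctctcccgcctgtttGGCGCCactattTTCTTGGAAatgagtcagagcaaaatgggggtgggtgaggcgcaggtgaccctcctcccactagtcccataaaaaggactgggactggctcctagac
Hamp2: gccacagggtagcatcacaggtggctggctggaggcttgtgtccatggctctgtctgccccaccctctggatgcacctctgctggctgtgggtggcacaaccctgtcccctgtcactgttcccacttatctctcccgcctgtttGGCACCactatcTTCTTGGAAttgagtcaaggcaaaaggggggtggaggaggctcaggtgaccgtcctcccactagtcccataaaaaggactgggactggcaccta

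The upstream windows were 91.9% identical over 247 aligned bases. TTCNNNGAA was found once in each, as TTCTTGGAA, starting 97 bases before the RefSeq start in Hamp and 94 bases before it in Hamp2. GGCGCC was found in the Hamp window at 109 bases before the start, and the aligned Hamp2 bases carry the substitution G145A, with positions counted from 1 at the 5′ end of the printed Hamp sequence. Both strands were searched, and the motifs share no base with each other. Among all 32851 RefSeq windows of 250 upstream bases, 9.59% held GGCGCC and 7.02% held TTCNNNGAA. Among the other 8 genes, 6 had windows in the same table, and 1 of these, Tfrc, held GGCGCC. These matches describe letters and show no binding.

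The Hamp2 levels in PBS livers were 12.4, 27.3, 21.3, 23.5 and 19 CPM in libraries 1 to 5. In TAA_GFP the lowest, median and highest were 13.3, 22.1 and 25.7 CPM. In TAA_miR they were 8.57, 69.2 and 117 CPM. In 5 TAA_miR libraries Hamp2 lay above every other library of the study (51.9 to 117 CPM), and in TAA_miR libraries 5 and 7 it lay at 8.57 and 13.3 CPM, at or under the lowest TAA_GFP library. Libraries 5 and 7 are a close pair, and so are 1 and 2 and 3 and 4 among the 5 high ones. The log2 fold change against TAA_GFP was 1.61 ± 0.42 (SE), a 3.04-fold higher mean level, with an adjusted p of 0.0389 in edgeR's quasi-likelihood test. Against PBS it was 1.60 ± 0.49 (edgeR adjusted p = 0.0291). In TAA_GFP against PBS it was -0.02 ± 0.22, with a 95% interval from -0.48 to 0.43.

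The Hamp2 calls rest on few counts (24 to 415 per library in TAA_miR) and on the 5 high libraries. The two-sided exact permutation test on log2 CPM gave p = 0.0606 against TAA_GFP and p = 0.111 against PBS, and limma-voom with quality weights gave adjusted p-values of 0.289 and 0.158. Against TAA_GFP the call held in 3 of the 14 fits that each left out 1 library, those without TAA_miR library 5, 6 or 7, and the adjusted p reached at most 0.10 in the other fits. Against PBS it held in 6 of 12 such fits and was lost without PBS library 1, 3, 4 or 5 or TAA_miR library 3 or 4, with an adjusted p of at most 0.0775. The Hamp2 log2 fold change ran from 1.38 to 1.80 in the 14 fits and from 1.38 to 1.79 in the 12. The 3′ ends of the Hamp and Hamp2 transcripts were 92.7% identical over 273 aligned bases but shared no stretch of 100 bases, the read length. With both genes summed into 1 row the log2 fold change was -0.48 in TAA_GFP against PBS, -0.06 in TAA_miR against TAA_GFP and -0.53 in TAA_miR against PBS (edgeR adjusted p = 0.219, 0.927 and 0.106).

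Hamp2 made up 3.34% to 8.31% of the counts of both hepcidin rows in 5 TAA_miR libraries, 0.414% and 0.552% in TAA_miR libraries 5 and 7, 0.520% to 1.51% in PBS and 0.754% to 2.34% in TAA_GFP. These are shares of counts and not of transcripts per length. The ratio of Hamp2 to Hamp within a library, added after the data were seen, was 1.22 higher on the log2 scale in TAA_miR than in TAA_GFP (two-sided exact permutation p = 0.108, 0.162 when adjusted over the 12 ratio comparisons made). It was 1.65 higher than in PBS (exact permutation p = 0.0796, adjusted 0.158). With the closest pairs averaged the differences were 1.40 and 1.61 (exact permutation p = 0.11 and 0.2). When each library was left out in turn, the unadjusted exact permutation p ran from 0.0204 to 0.206 against TAA_GFP. Against PBS it ran from 0.0217 to 0.152. It was under 0.05 in both comparisons without TAA_miR library 5 or 7, the 2 libraries low for Hamp2.

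**Figure D3:**
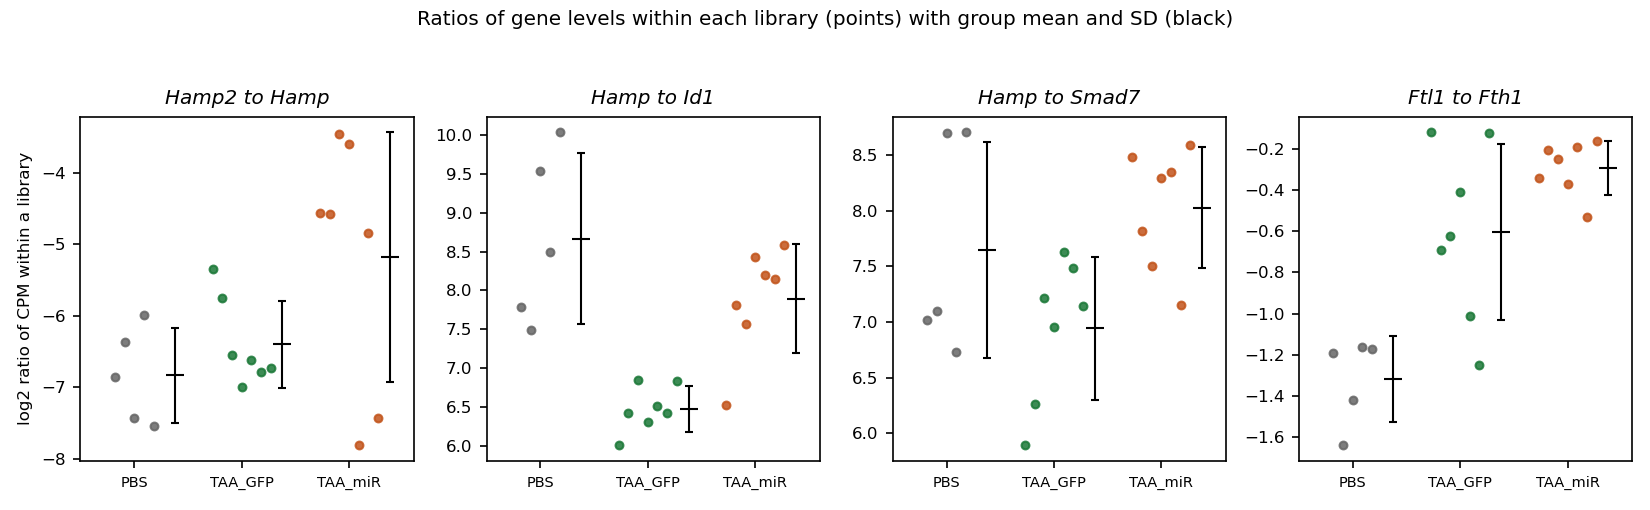
Log2 ratio of CPM of pairs of genes within each library (points), with the group mean and SD in black, for PBS (n = 5), TAA_GFP (n = 7) and TAA_miR (n = 7). The ratio of Hamp to Id1 is lower in all 7 TAA_GFP libraries than in any PBS library, and the ratio of Ftl1 to Fth1 is higher in all 7 TAA_miR libraries than in any PBS library.

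Among the genes that regulate hepcidin or report BMP-SMAD signalling, Id1 was higher in TAA_GFP than in both other groups. Of 29 tested genes of the BMP-SMAD and hepcidin list, 5 were called in TAA_GFP against PBS, a share near the 12.7% of all genes. The higher ones included Id1 and Atoh8, both known targets of BMP-SMAD signalling in hepatocytes, with Id2 and Socs3, and the lower one was Nampt. Id1 averaged 5.86 ± 3.75 CPM (SD, n = 5) in PBS, 19.7 ± 6.79 CPM (n = 7) in TAA_GFP and 7.23 ± 4.80 CPM (n = 7) in TAA_miR. All TAA_GFP libraries lay above all PBS libraries, and the Id1 log2 fold change was 1.75 ± 0.34 (SE) with an edgeR adjusted p of 0.00266. Atoh8 had a log2 fold change of 1.74 ± 0.44 (edgeR adjusted p = 0.0147). Smad6 and Smad7, which SMADs also induce, were not called in TAA_GFP against PBS. Their log2 fold changes were 0.90 ± 0.34 and 0.27 ± 0.26 (edgeR adjusted p = 0.0809 and 0.50). Over all 5 pathway lists given here, 13, 9 and 24 genes were called in TAA_GFP against PBS, TAA_miR against TAA_GFP and TAA_miR against PBS, and 1, 0 and 4 when the close pairs of libraries were summed at the planned limit. Leaving out 1 library gave 8 to 18, 7 to 11 and 16 to 30 in the same order.

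In TAA_miR against TAA_GFP, 4 of 29 genes of the same list were called, against 3.36% of all genes. Id1 fell by 1.46 ± 0.32 on the log2 scale (edgeR adjusted p = 0.0125). Smad7, an inhibitor of SMAD signalling that SMADs themselves induce, fell by 1.19 ± 0.25 (edgeR adjusted p = 0.0106), from 13.9 ± 4.07 to 6.02 ± 2.08 CPM (SD, n = 7 each). Smad6, another such inhibitor, fell by 1.09 ± 0.29 (edgeR adjusted p = 0.0411) and did not overlap between the groups, which held for 1.38% of all genes tested. Counts were low in TAA_miR, at 4 to 12 per library for Smad6, 9 to 49 for Smad7 and 8 to 52 for Id1. Fgl1, which encodes a liver protein that binds BMP ligands, rose by 2.01 ± 0.40 (edgeR adjusted p = 0.00714). In TAA_miR against PBS, 5 of 28 were called, a share no higher than the 21.9% of all genes, with Stat3, Socs3 and Il6st higher and Nampt and Smad7 lower. The interleukin 6 receptor subunit Il6st had a log2 fold change of 0.76 ± 0.22 (edgeR adjusted p = 0.0238) and Stat3 of 1.26 ± 0.17 (edgeR adjusted p = 0.000164). Between TAA_miR and TAA_GFP, Il6st, Stat3 and Socs3 were not called. Their log2 fold changes there were 0.53, 0.45 and 0.43 (edgeR adjusted p = 0.27, 0.49 and 0.61). Of 9 tested hepatic stellate cell markers, 2 were higher in TAA_GFP than in PBS, beside 7.54% of all genes. Of 8 tested, 2 were lower in TAA_miR than in TAA_GFP, beside 1.42%. Their summed level was 363 to 560 CPM in PBS, 392 to 520 CPM in TAA_GFP and 263 to 472 CPM in TAA_miR. The part of these markers in the levels of Id1, Smad6 and Smad7 was not tested.

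Hamp can also be set against these genes within each library. The log2 ratio of Hamp to Id1 averaged 8.67 ± 1.10 (SD, n = 5) in PBS, 6.48 ± 0.30 (n = 7) in TAA_GFP and 7.89 ± 0.70 (n = 7) in TAA_miR. That of Hamp to Smad7 averaged 7.65 ± 0.97 in PBS, 6.94 ± 0.64 in TAA_GFP and 8.03 ± 0.54 in TAA_miR. These ratios hold the differences of both their genes, are not independent of the values above and are given as a description. Their permutation tests are counted among the 12 ratio comparisons but not used here.

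Tfr2 and Hfe, whose products sense transferrin-bound iron and signal to hepcidin, were not called in any comparison. Tfr2 stood at 171, 228, 165, 202 and 127 CPM in PBS libraries 1 to 5. Its lowest, median and highest levels were 114, 135 and 199 CPM in TAA_GFP and 153, 166 and 200 CPM in TAA_miR. All 3 groups overlapped. The Tfr2 log2 fold changes ran from -0.29 ± 0.17 in TAA_GFP against PBS to 0.24 ± 0.14 (SE) in TAA_miR against TAA_GFP, with edgeR adjusted p-values of 0.265 and 0.448. Hfe stood at 38, 23.4, 39.0, 29.1 and 36.4 CPM in PBS, and at 27.9 to 39.4 CPM in TAA_GFP and 28.6 to 62.0 CPM in TAA_miR. The Hfe intervals ran from -0.32 to 0.42 in TAA_GFP against PBS and from -0.19 to 0.55 in TAA_miR against TAA_GFP.

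Tfrc encodes transferrin receptor 1, through which cells take up transferrin-bound iron. It stood at 6.56, 11.5, 7.54, 12.8 and 7.27 CPM in PBS libraries 1 to 5. The lowest, median and highest Tfrc levels were 11.2, 14.5 and 23.7 CPM in TAA_GFP and 6.63, 10.1 and 32.2 CPM in TAA_miR. TAA_GFP lay mostly above PBS, while in TAA_miR libraries 1 and 2 (27.0 and 32.2 CPM), a close pair, stood far above the other 5. The log2 fold change in TAA_GFP against PBS was 0.77 ± 0.26 (SE), with an adjusted p of 0.0578 in edgeR's quasi-likelihood test and between 0.0355 and 0.222 under other settings. The two-sided exact permutation test on that difference gave p = 0.0177, with no adjustment. Between TAA_miR and TAA_GFP the log2 fold change was -0.08 ± 0.33 (edgeR adjusted p = 0.954), and in TAA_miR against PBS it was 0.70 ± 0.39 (edgeR adjusted p = 0.194). Tfrc counts were low, at 17 to 99 per library.

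Trf encodes transferrin, the iron carrier that hepatocytes secrete into plasma. Trf stood at 9201, 8180, 6888, 8524 and 6433 CPM in PBS libraries 1 to 5. Its lowest, median and highest levels were 6017, 9977 and 13043 CPM in TAA_GFP and 10199, 15985 and 20289 CPM in TAA_miR. Every TAA_miR library lay above every PBS library, which 7.78% of all genes tested did in one direction or the other. Trf rose in TAA_miR against PBS with a log2 fold change of 0.95 ± 0.21 (SE), a 1.93-fold higher level (edgeR adjusted p = 0.00522). The TAA_miR level was 1.59-fold that of TAA_GFP, a log2 fold change of 0.67 ± 0.21 that missed the threshold (edgeR adjusted p = 0.0833), with 5 of 7 TAA_miR libraries above all TAA_GFP libraries. In TAA_GFP against PBS the log2 fold change was 0.27 ± 0.20 (edgeR adjusted p = 0.389).

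Cp encodes ceruloplasmin, the copper-containing plasma ferroxidase that oxidizes iron leaving cells so that transferrin can bind it. In PBS livers Cp stood at 1410, 941, 1151, 1451 and 1145 CPM. The lowest, median and highest Cp levels were 1123, 1847 and 2100 CPM in TAA_GFP and 1867, 3281 and 3567 CPM in TAA_miR. The order of the groups was PBS, TAA_GFP and TAA_miR, and TAA_miR did not overlap PBS. Cp rose in TAA_miR against PBS with a log2 fold change of 1.23 ± 0.20 (SE), a 2.35-fold higher level (edgeR adjusted p = 0.000889). It rose in TAA_miR against TAA_GFP by 0.74 ± 0.19, a 1.66-fold higher level (edgeR adjusted p = 0.0386), with 5 of 7 TAA_miR libraries above all TAA_GFP libraries. In TAA_GFP against PBS the log2 fold change was 0.48 ± 0.19 (edgeR adjusted p = 0.0970), with 5 of 7 libraries above all PBS libraries. The call against TAA_GFP was lost when libraries were scaled by their totals alone, with a log2 fold change of 0.51 (adjusted p = 0.0948). It was also lost without TAA_GFP library 1, 3, 6 or 7 or TAA_miR library 1, 2, 3 or 4, with an adjusted p of at most 0.0879. Over all 14 fits that left out 1 library, the log2 fold change ran from 0.66 to 0.82. Cp overlaps Hps3 on the opposite strand, which was counted at 0 to 20 per library.

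Trf and Cp were alike across the livers. Among 9006 genes tested in all 3 comparisons, Cp had the highest Pearson correlation with Trf over the 19 libraries (r = 0.939), followed by Pter, Aldh1l1, Qsox1 and Lsr (r = 0.905 to 0.917). The libraries share groups and depth and include the close pairs, so the correlations in this paragraph describe the set. With each group's mean removed, the correlation of Trf with Cp was 0.866. Aprt was the gene most like Hamp over the same libraries (r = 0.862), ahead of Isca1, 1300017J02Rik, Chn2 and Agxt (0.732 to 0.748).

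Acute-phase genes, which the liver turns up in inflammation, were higher in TAA_miR, the group in which Hamp2, Trf and Cp were highest. Of 26 acute-phase, interleukin 6 and STAT3 target genes, 21 were higher in TAA_miR than in TAA_GFP, where 1.95% of all genes were, and 16 were higher than in PBS, where 12.2% were. In TAA_GFP against PBS the list went the other way, with 7 lower against 5.19% of all genes and 1 higher, and a median log2 fold change of -0.51, beside values of -0.02 for Hamp2, 0.27 for Trf and 0.48 for Cp that were not called. The summed level of the list was 26868 to 66943 CPM in TAA_GFP, 37507 to 80879 CPM in PBS and 62172 to 213550 CPM in TAA_miR. TAA_miR libraries 5 and 7, the close pair that was low for Hamp2, had the lowest acute-phase sums of their group (63539 and 62172 CPM) and the lowest Trf (10348 and 10199 CPM) and Cp levels (2002 and 1867 CPM). With group means removed, the correlation with Saa1, a serum amyloid A gene of the list, was 0.743 for Cp and 0.713 for Trf over 19 libraries, 0.492 for Tfr2, between 0.152 and 0.388 for Hamp2, Tfrc, Fth1, Hfe, Slc40a1 and Ftl1, and -0.295 for Hamp. The close pairs of libraries may not be separate samples, so these correlations describe the set. A list of 8 neutrophil markers summed to 15.1 to 74.1 CPM in TAA_GFP and 63.8 to 1929 CPM in TAA_miR, ranges that overlap. In that comparison 3 of the 8 passed the low-count filter and were called higher, beside 1.95% of all genes. A gene can pass that filter through its TAA_miR counts alone, so this count is not used as support. In TAA_GFP against PBS 2 of the 8 passed the filter. Within PBS, libraries 1 and 4 had the highest acute-phase sums, and their Hamp2 levels were 12.4 CPM, the lowest of the 5, and 23.5 CPM. The part of the acute-phase genes or of neutrophils in the levels of Hamp2, Trf and Cp was not tested.

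**Figure D4:**
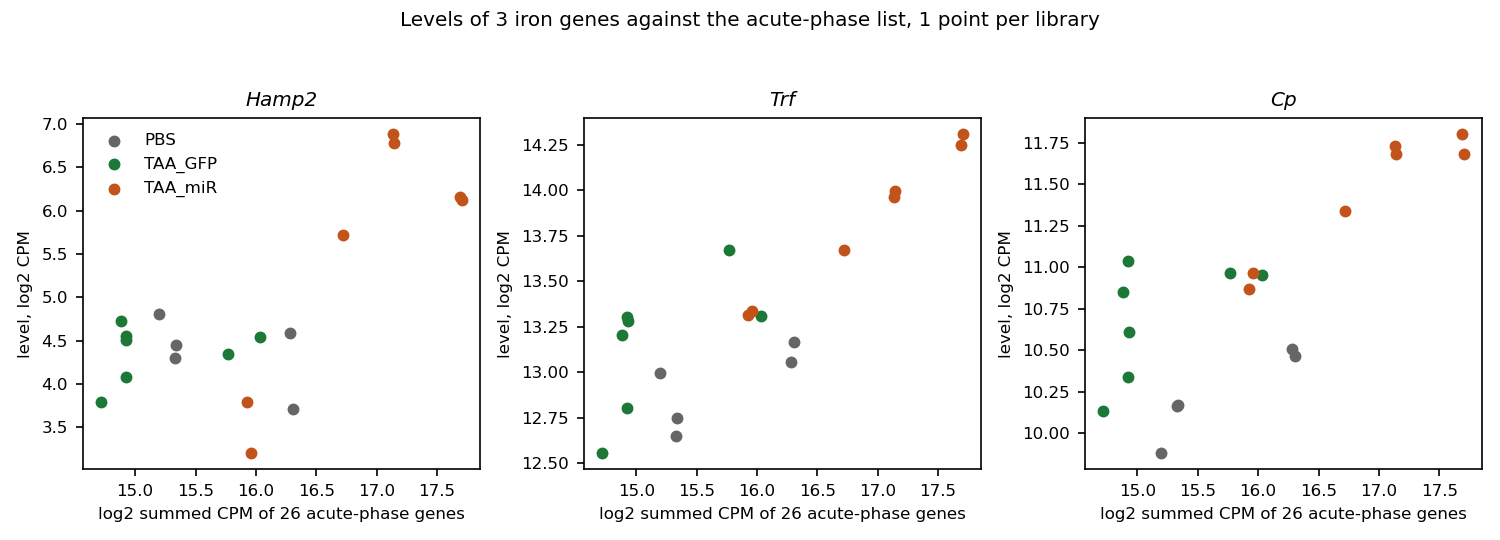
Level of Hamp2, Trf and Cp (vertical axis, log2 CPM) against the log2 of the summed CPM of 26 acute-phase genes (horizontal axis), 1 point per library, for PBS (n = 5), TAA_GFP (n = 7) and TAA_miR (n = 7). The 5 TAA_miR libraries with the highest acute-phase sums also have the 5 highest Hamp2 and Cp levels, and TAA_miR libraries 5 and 7 have the lowest acute-phase sums of their group.

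The genes that store and release iron carry iron-responsive elements in their messengers. To show them, annotated untranslated regions were searched for the loop CAGTGN preceded by an unpaired C and 5 bases that pair with the 5 bases after the loop. Such a hairpin was found in the 5′ untranslated region of 0.0774% of 20683 genes and in the 3′ untranslated region of 0.425% of 21662 genes. Among the 10 iron genes it was found once in the 5′ region of Fth1, Ftl1 and Slc40a1 and 4 times in the 3′ region of Tfrc. The 30 bases around a hairpin are given 5′ to 3′ from the GENCODE transcripts, with the loop in capitals.
Fth1: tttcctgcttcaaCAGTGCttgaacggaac
Ftl1: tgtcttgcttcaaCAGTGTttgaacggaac
Slc40a1: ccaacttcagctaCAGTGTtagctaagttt
Tfrc: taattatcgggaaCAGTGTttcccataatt

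The counts measure messenger level, so translation, the step on which hairpins in the 5′ region act, was not measured. Ftl1, the ferritin light chain, was higher in both thioacetamide groups. Ftl1 stood at 425, 275, 330, 457 and 467 CPM in PBS libraries 1 to 5. Its lowest, median and highest levels were 500, 646 and 1253 CPM in TAA_GFP and 414, 663 and 850 CPM in TAA_miR. Every TAA_GFP library lay above every PBS library, which for groups that do not overlap in either direction held for 4.77% of all genes tested. In TAA_miR only library 6, at 414 CPM, lay within the PBS range. The log2 fold change against PBS was 1.0 ± 0.23 (SE) in TAA_GFP (edgeR adjusted p = 0.00812) and 0.79 ± 0.19 in TAA_miR (edgeR adjusted p = 0.00778). Between TAA_miR and TAA_GFP it was -0.22 ± 0.20, with a 95% interval from -0.64 to 0.21. Both calls against PBS held in all 12 fits that left out 1 library. Of the 301 stretches of 100 bases in the last 400 bases of Ftl1, 115 occur in other annotated genes, among them the pseudogene Ftl1-ps1, which was counted at 0 to 4 per library.

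Fth1, the ferritin heavy chain, which carries the ferroxidase activity of ferritin, was not called. It stood at 971, 860, 884, 1023 and 1051 CPM in PBS. Its lowest, median and highest levels were 995, 1109 and 1364 CPM in TAA_GFP and 597, 831 and 997 CPM in TAA_miR. TAA_GFP lay above TAA_miR except for an overlap between 995 and 997 CPM. The log2 fold change in TAA_miR against TAA_GFP was -0.48 ± 0.14 (SE), with an edgeR adjusted p of 0.0720. It passed the threshold with DESeq2, with limma-voom, with all 3 groups in 1 fit and with scaling by library totals (adjusted p = 0.0157, 0.0135, 0.0444 and 0.00371). These were 4 of 10 other settings. It did not pass with the replicate block or with close pairs summed at the planned limit (edgeR adjusted p = 0.205 and 0.299). Of the 14 fits that left out 1 library, 0 passed (edgeR adjusted p = 0.0522 to 0.145). Against PBS, Fth1 had log2 fold changes of 0.25 ± 0.15 in TAA_GFP and -0.22 ± 0.15 in TAA_miR (edgeR adjusted p = 0.282 and 0.302).

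The ratio of light to heavy ferritin chain messengers was higher in both thioacetamide groups than in PBS. The log2 ratio of Ftl1 to Fth1 averaged -1.32 ± 0.21 (SD, n = 5) in PBS, -0.60 ± 0.43 (n = 7) in TAA_GFP and -0.29 ± 0.13 (n = 7) in TAA_miR. The TAA_miR ratios did not overlap those of PBS and were 1.02 higher (two-sided exact permutation p = 0.00126, adjusted 0.00699 over the 12 ratio comparisons). In TAA_GFP the ratio was 0.71 higher than in PBS (exact permutation p = 0.00884, adjusted 0.0212), with 6 of 7 libraries above all PBS libraries. It did not differ past the threshold between TAA_miR and TAA_GFP (exact permutation p = 0.0921). With the closest pairs averaged, the ratio was 1.05 higher in TAA_miR than in PBS (exact permutation p = 0.0286, the smallest that 4 against 3 samples allow) and 0.73 higher in TAA_GFP than in PBS (exact permutation p = 0.0595), both unadjusted. At the planned limit for close pairs the latter was 0.66 (exact permutation p = 0.143). Both ferritin genes are also targets of the oxidative-stress factor NRF2, and the other 12 genes of an NRF2 list summed to 836 to 1149 CPM in PBS, 1720 to 3283 CPM in TAA_GFP and 912 to 1584 CPM in TAA_miR. Of these, 4 of 9 tested were higher in TAA_GFP than in PBS, 3 of 10 were lower in TAA_miR than in TAA_GFP and 1 of 9 was higher in TAA_miR than in PBS, beside 7.54%, 1.42% and 12.2% of all genes. The part of that list in the ferritin levels was not tested.

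Slc40a1, which encodes the exporter ferroportin and is expressed in Kupffer cells as well as hepatocytes, was lowest in TAA_miR. It stood at 128, 94.9, 120, 134 and 123 CPM in PBS libraries 1 to 5. Its lowest, median and highest levels were 66.3, 90.1 and 112 CPM in TAA_GFP and 48.4, 78.5 and 94.3 CPM in TAA_miR. All TAA_miR libraries lay below all PBS libraries, by less than 1 CPM between the nearest 2. Slc40a1 fell by 0.76 ± 0.19 (SE) on the log2 scale in TAA_miR against PBS, a 1.69-fold lower level (edgeR adjusted p = 0.00971), and the call held in all 12 fits that left out 1 library. In TAA_GFP against PBS the log2 fold change was -0.40 ± 0.16 (edgeR adjusted p = 0.107), with 5 of 7 libraries below all PBS libraries. The TAA_miR against TAA_GFP value was -0.36 ± 0.18 (edgeR adjusted p = 0.362). Of 11 tested Kupffer cell and macrophage markers, 5 were lower in TAA_GFP than in PBS, against 5.19% of all genes, and 2 were lower in TAA_miR than in PBS, against 9.75%. Between TAA_miR and TAA_GFP, 2 of 10 were higher, against 1.95%. Their summed level was 475 to 861 CPM in PBS, 383 to 625 CPM in TAA_GFP and 573 to 830 CPM in TAA_miR. A list of scar-associated macrophage markers went the other way, at 71.8 to 162 CPM in PBS, 240 to 457 CPM in TAA_GFP and 124 to 490 CPM in TAA_miR. Of 6 tested, 4 were higher in TAA_GFP than in PBS, where 7.54% of all genes were, 2 were lower in TAA_miR than in TAA_GFP (1.42%) and 2 were higher in TAA_miR than in PBS (12.2%). The part of either list in the levels of Slc40a1 and Ftl1 was not tested.

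Among the genes that encode the iron regulatory proteins, Ireb2 fell in both thioacetamide groups and Aco1 in TAA_miR, each against PBS. Ireb2, which encodes iron regulatory protein 2, fell by 0.55 ± 0.18 (SE) on the log2 scale in TAA_GFP against PBS (edgeR adjusted p = 0.0465) and by 0.86 ± 0.17 in TAA_miR against PBS (edgeR adjusted p = 0.00245), with all 7 TAA_miR libraries below all PBS libraries. Aco1, which encodes iron regulatory protein 1, fell by 0.55 ± 0.17 in TAA_miR against PBS (edgeR adjusted p = 0.0271) and had a log2 fold change of 0.04 ± 0.18 in TAA_GFP. Of the 18 tested genes of the list on iron regulatory proteins and ferritin handling, 3 were called in each comparison with PBS. That share is near the 12.7% of all genes called for TAA_GFP and no higher than the 21.9% for TAA_miR. The other called genes in TAA_GFP were the higher Pcbp4, an RNA-binding protein, and the lower Fbxl5, which targets iron regulatory proteins for degradation. In TAA_miR the other called gene was the higher Iscu, an iron-sulphur cluster scaffold. In TAA_miR against TAA_GFP edgeR called 0 of 18, with 4 at an unadjusted p under 0.05, and DESeq2 and limma-voom called 2 each.

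In the list on cellular iron uptake, export and reductases, every called gene was higher. Of 15 tested, 1 was called in TAA_GFP against PBS, 2 in TAA_miR against TAA_GFP and 5 in TAA_miR against PBS. Beside these, 7.54%, 1.95% and 12.2% of all genes were called higher, and the first count is near its share. Steap3, the reductase that prepares iron for export from endosomes, rose by 1.13 ± 0.22 (SE) on the log2 scale in TAA_GFP against PBS (edgeR adjusted p = 0.00307), and all 7 libraries lay above all PBS libraries. Steap4, a metalloreductase that the acute-phase list also holds, rose by 2.12 ± 0.40 in TAA_miR against TAA_GFP (edgeR adjusted p = 0.00477). Scara5, a ferritin receptor, rose by 1.51 ± 0.39 in the same comparison (edgeR adjusted p = 0.0389). In TAA_miR against PBS these genes were joined by the iron transporter Slc11a2 (0.94 ± 0.27) and the heme and folate transporter Slc46a1 (0.57 ± 0.19), with edgeR adjusted p-values of 0.0207 and 0.0441.

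**Figure D5:**
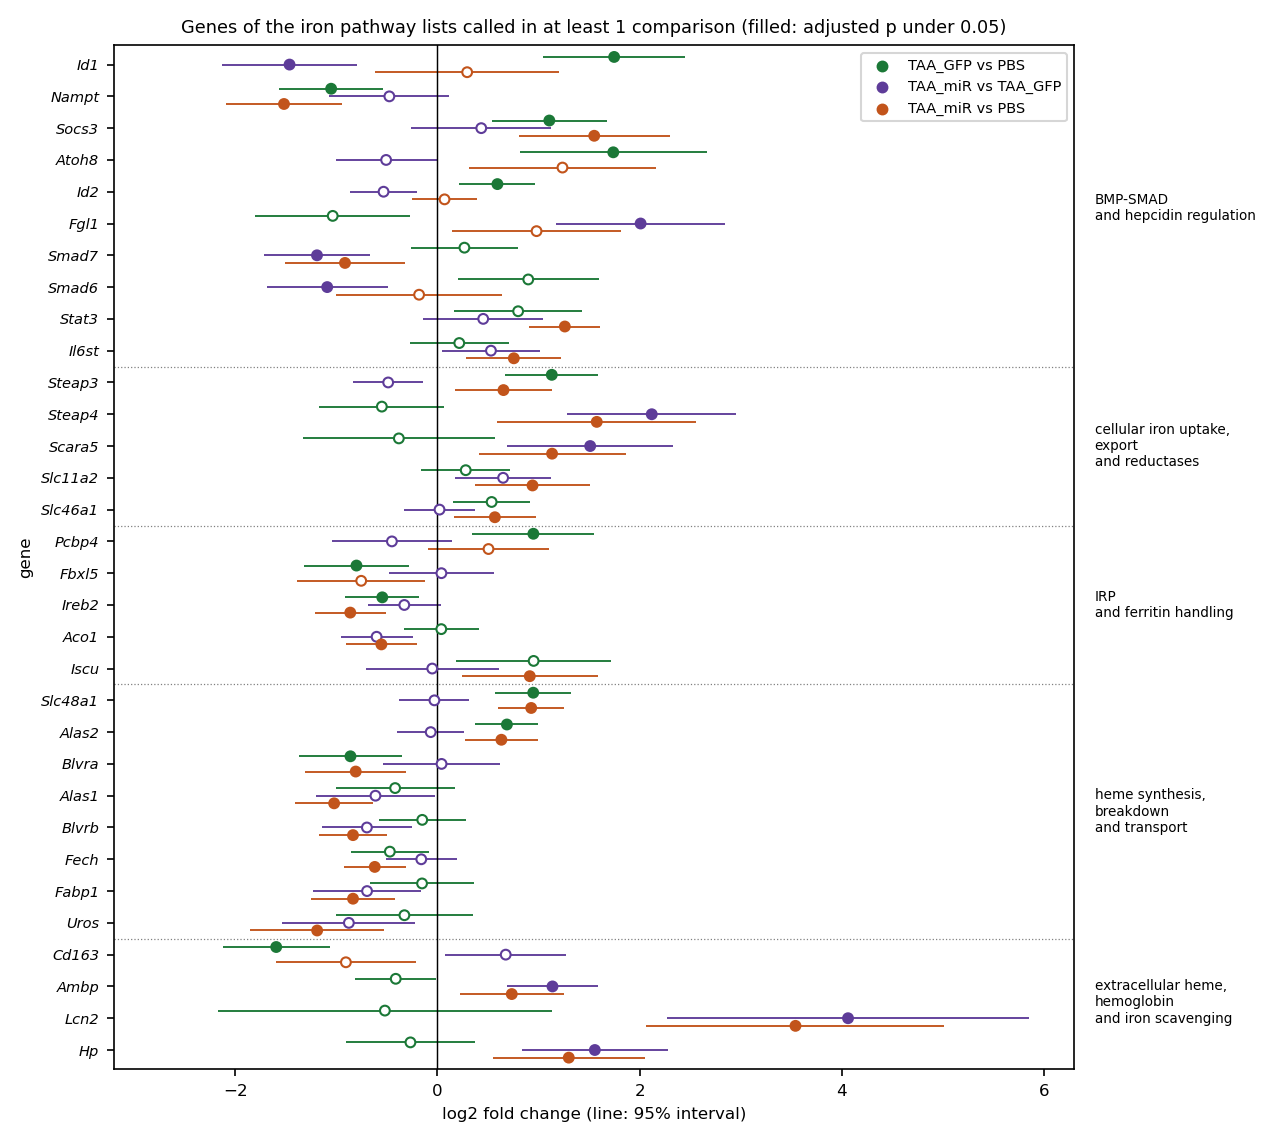
Log2 fold change (horizontal axis, line for the 95% interval) of the genes of 5 iron pathway lists that were called in at least 1 comparison, grouped by list. Filled points have an adjusted p under 0.05. Id1 lies to the right in TAA_GFP against PBS and to the left in TAA_miR against TAA_GFP, and Lcn2 has the largest values, 4.06 and 3.54.

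Of 23 tested genes of heme synthesis, breakdown and transport, 3 were called in TAA_GFP against PBS (Slc48a1 and Alas2 higher, Blvra lower), beside 12.7% of all genes, and 8 in TAA_miR against PBS, beside 21.9%. In TAA_miR against TAA_GFP edgeR called 0 of 22, with 6 at an unadjusted p under 0.05, DESeq2 calling 2 and limma-voom 1. Slc48a1, which exports heme from lysosomes, rose by 0.95 ± 0.18 (SE) on the log2 scale in TAA_GFP and by 0.93 ± 0.16 in TAA_miR (edgeR adjusted p = 0.00262 and 0.00109), and neither group overlapped PBS. Alas1, the rate-limiting enzyme of heme synthesis in the liver, fell by 1.02 ± 0.18 in TAA_miR against PBS (edgeR adjusted p = 0.00162), as did Fech by 0.62 ± 0.14 and Uros by 1.19 ± 0.32, both enzymes of the same pathway (edgeR adjusted p = 0.00751 and 0.0142). The biliverdin reductases Blvra and Blvrb fell by 0.81 ± 0.24 and 0.83 ± 0.16 in that comparison (edgeR adjusted p = 0.0232 and 0.00234), and Fabp1, a fatty acid and heme-binding protein, fell by 0.83 ± 0.20 (edgeR adjusted p = 0.00778). Alas2, the erythroid form of the first enzyme, rose by 0.69 ± 0.15 in TAA_GFP and 0.63 ± 0.17 in TAA_miR against PBS (edgeR adjusted p = 0.00638 and 0.0164). Beside it, 11 red cell genes that include Alas2 summed to 113 to 380 CPM in PBS, 164 to 807 CPM in TAA_GFP and 192 to 401 CPM in TAA_miR, with Gata1 at 0 counts throughout. Their part in the level of Alas2 was not tested.

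Of the 7 tested scavengers of heme, hemoglobin and iron outside cells, 3 were higher in TAA_miR against TAA_GFP and against PBS, beside 1.95% and 12.2% of all genes. Lcn2, which binds bacterial iron carriers and which neutrophils also make, rose by 4.06 ± 0.85 (SE) on the log2 scale against TAA_GFP (edgeR adjusted p = 0.0106), from 1.63 to 182 CPM in TAA_GFP to 115 to 1317 CPM in TAA_miR. Hp, which encodes the hemoglobin-binding haptoglobin, rose by 1.56 ± 0.35 (edgeR adjusted p = 0.0145), and Ambp, whose product includes a heme-binding protein, rose by 1.14 ± 0.21 (edgeR adjusted p = 0.00477). Lcn2 and Hp also stand in the acute-phase list. Cd163, the macrophage receptor for haptoglobin-bound hemoglobin, fell by 1.59 ± 0.25 in TAA_GFP against PBS (edgeR adjusted p = 0.000555), from 22.1 ± 7.80 (SD, n = 5) to 7.27 ± 1.4 CPM (n = 7), with no overlap. In TAA_miR it averaged 11.7 ± 4.91 CPM (n = 7), with a log2 fold change of -0.90 ± 0.33 against PBS (edgeR adjusted p = 0.0561).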

How the data were processed

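Total RNA from 19 mouse livers was sequenced by 3′ mRNA-seq, in single reads of 100 bases. The labels name a QuantSeq kit and the study's methods a digital mRNA-seq service; whether counting used strand is not given in the sources used here. The deposited unit is raw counts per gene: the authors filtered, trimmed and aligned reads (STAR and mm10 per the labels' processing notes) and counted them by gene. Symbols matched 30934 of 31053 gene IDs in the reference tables. Totals ranged from 2214073 to 5208405, and each count's precision is limited by counting error as well as by the spread between mice. The labels call the replicates biological, but whether the 6 close pairs of libraries are separate mice, repeats or pools is not known; if they are not separate, n is smaller and the SEs and p-values are too small.

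Each pair of groups was fitted with edgeR 4.0.16 in R 4.3.3 (TMM scaling, low-count filter filterByExpr at 10 counts per library and 15 in total, quasi-likelihood test, Benjamini-Hochberg over all genes tested), since the methods state a false discovery rate of 0.05 but no test. Single levels and within-library ratios were compared by two-sided exact permutation on log2 CPM with a prior count of 2, for which p is not adjusted over the genes named. Scripts were tested on simulated data. The 10 genes, the pathway and marker lists and the rules were chosen with earlier results of these data known. Named genes were the 10, up to 6 called genes per pathway list and comparison with the smallest adjusted p, and the 5 most correlated with Hamp, Trf and Tfrc (those of Tfrc are not reported here). Alternatives were other filters, scalings and tools (DESeq2 1.42.0, limma 3.58.1), all groups in 1 fit, a replicate block, summing close pairs and leaving out each library. Upstream sequences are from RefSeq (GRCm38.p6), with windows for 8 of the 10 genes, and transcripts from GENCODE on GRCm38.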

Additional observations from a re-analysis of the deposited data

Results flagged for a closer look

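Ftl1 in TAA_miR library 6 stood far below its group, at 8.69 log2 CPM against 9.31 for the nearest of the other 6 libraries. It was the only such value among 42 groups of values examined, where chance gives about 2.1. Without that library the higher Ftl1 in TAA_miR than in PBS stayed past the threshold.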

How the results depend on the processing

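Across 683 fits of the 10 genes under alternatives, 619 kept their side of the threshold (22 of them changed the sign of a value called in neither fit), 44 lost a call, 20 gained one and 0 changed the direction of a called value. Members called were 1, 2 and 5 in TAA_GFP against PBS, TAA_miR against TAA_GFP and TAA_miR against PBS. For TAA_GFP against PBS they were 2 (Tfrc and Ftl1) with 10 counts in every library, with scaling by library totals and with DESeq2, and 4 with limma-voom or the replicate block. For TAA_miR against TAA_GFP they were 4 (Hamp2, Trf, Fth1 and Cp) with DESeq2 or all groups in 1 fit, and 0 with the replicate block. With close pairs summed, at the planned limit of 0.2 or at 0.15 (chosen after the data were seen), they were 0, 0 and 1. Leaving out 1 library gave 1 to 3, 0 to 2 and 4 to 5. The causes of these shifts were not tested, and the summed fits also hold fewer samples.

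All genes called numbered 1212, 311 and 2037. They were 2687, 813 and 3839 with limma-voom and 131, 16 and 331 with close pairs summed at 0.2. At 0.15 they were 227, 87 and 331. In TAA_miR against TAA_GFP they were 624 with library totals and 542 with DESeq2. Leaving out 1 library gave 689 to 1859, 209 to 344 and 1267 to 2695. Replicate numbers are shared between groups, but same-numbered libraries did not deviate together (correlations of -0.284 to 0.277), so the numbers were not treated as pairs. Pathway list genes called (13, 9 and 24) were 23, 14 and 43 with limma-voom and 26, 2 and 16 with the replicate block, 16 in TAA_miR against TAA_GFP with DESeq2 or library totals, and 4, 1 and 4 with pairs summed at 0.15. The replicate block gave 3136, 142 and 945 genes called, with adjusted p = 0.189 for Hamp2 and 0.0614 for Cp in TAA_miR against TAA_GFP (edgeR). Scaling by totals shifted the median log2 fold change of all genes by 0.06, -0.19 and -0.14.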
